A study of Mus musculus with 4 samples.

Results

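The mitochondrial ribosomal proteins are the nuclear-encoded protein subunits of the ribosome inside mitochondria. They were taken as every gene in the count table whose symbol starts with Mrpl (large subunit) or Mrps (small subunit), which gave 78 genes of 21552, of which 77 are protein-coding and 1, Mrpl23-ps1, is a pseudogene. The mitochondrial ribosome translates only the messages of the mitochondrial genome, all of which code for membrane subunits of the respiratory chain and ATP synthase, so in cardiac muscle it stands upstream of the machinery that makes most ATP. Its RNA comes from mitochondrial DNA, while its proteins are translated in the cytosol and imported, and mammals have added many subunits that bacterial ribosomes lack. Symbols and subunits do not always match, since Mrps18a and Mrps30 sit in the large subunit and Mrps36 is now regarded as a component of the 2-oxoglutarate dehydrogenase complex.

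Hearts of 2 infarcted mice were set against those of 2 uninjured mice of the same strain, C57BL/6, with 7d in the name of every library. The infarct was made by permanently tying the left anterior descending coronary artery, and the myocardium sampled was that remote from the infarct. The labels give remote area as the source of the uninjured hearts too, and give neither age nor sex. Polyadenylated RNA of each heart was sequenced in 1 library, so the p-values measure the spread between these 4 mice alone.

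Library totals were 46232326 counts for infarcted replicate 1, 35715115 for infarcted replicate 2, 53944859 for uninjured replicate 1 and 70885393 for uninjured replicate 2, of which the mitochondrial genome's own genes took between 36.7% and 48.4%. A mitochondrial ribosomal protein gene had a median of 1098 and 816.5 counts in the infarcted libraries and of 1450.5 and 2455.5 counts in the uninjured ones. The hearts carried strong cardiac muscle messages in every library. The summed level of 10 cardiomyocyte markers was 39441 and 34624 CPM in infarcted hearts and 60082 and 75380 CPM in uninjured hearts (CPM are counts normalised to library size, with sizes scaled by TMM). Of 8 fibroblast markers 5 were called higher and of 8 macrophage markers 7, with median log2 fold changes of 2.81 and 1.61, whereas 0 of 6 endothelial markers were called. Infarcted replicate 2 stood apart in atrial messages: Myl4 was at 1.34 CPM in infarcted replicate 1 and 360.5 CPM in infarcted replicate 2, against 1.42 and 2.44 CPM in uninjured hearts. In bulk tissue fewer cells of a type and less RNA per cell cannot be told apart.

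The mitochondrial ribosomal protein messages were lower in infarcted hearts as a family. Of the 76 genes with enough counts to test, 63 fell, 0 rose and 13 were not called at an adjusted p below 0.05 (edgeR quasi-likelihood test, Benjamini-Hochberg over 13905 genes). Among all genes tested, 14.6% were called lower and 18.3% higher. All 76 fitted log2 fold changes lay below 0, with a median of -0.82, which corresponds to 56.6% of the uninjured level, against a median of 0.02 over all genes. The members stayed close together, with an SD among them of 0.21 and an interquartile range of -0.93 to -0.65, where the middle of all genes spread from -0.42 to 0.54. The called genes were 1.49-fold to 2.42-fold lower, and 16 of them were over 2-fold lower.

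The summed level of the family was 2046 and 1821 CPM in infarcted hearts, against 2971 and 4041 CPM in uninjured hearts. The 2 infarcted hearts were close to each other and the 2 uninjured hearts were not. Uninjured replicate 2 was above uninjured replicate 1 for all 76 genes, by a median of 0.43 on the log2 scale, where the median over all genes was 0.04. Both infarcted hearts nevertheless lay below both uninjured hearts for 75 of the 76 genes, an arrangement found in 33.8% of all genes, and Mrps10 was the exception. The calls rested on uninjured replicate 2: without it 0 members were called lower, in a fit that called 0.056% of all genes lower. The members' median log2 fold change was then -0.60, where the median over all genes was 0.03. DESeq2 called 14 without that library, against 3.48% of all genes. Without infarcted replicate 2, the library with atrial messages, 32 were called, against 8.83% of all genes, and the median was -0.77. With library totals as the scale 23 were called, against 5.65% of all genes, and the members' median lay 0.84 log2 units under that of all genes, as it did with TMM.

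**Figure D1:**
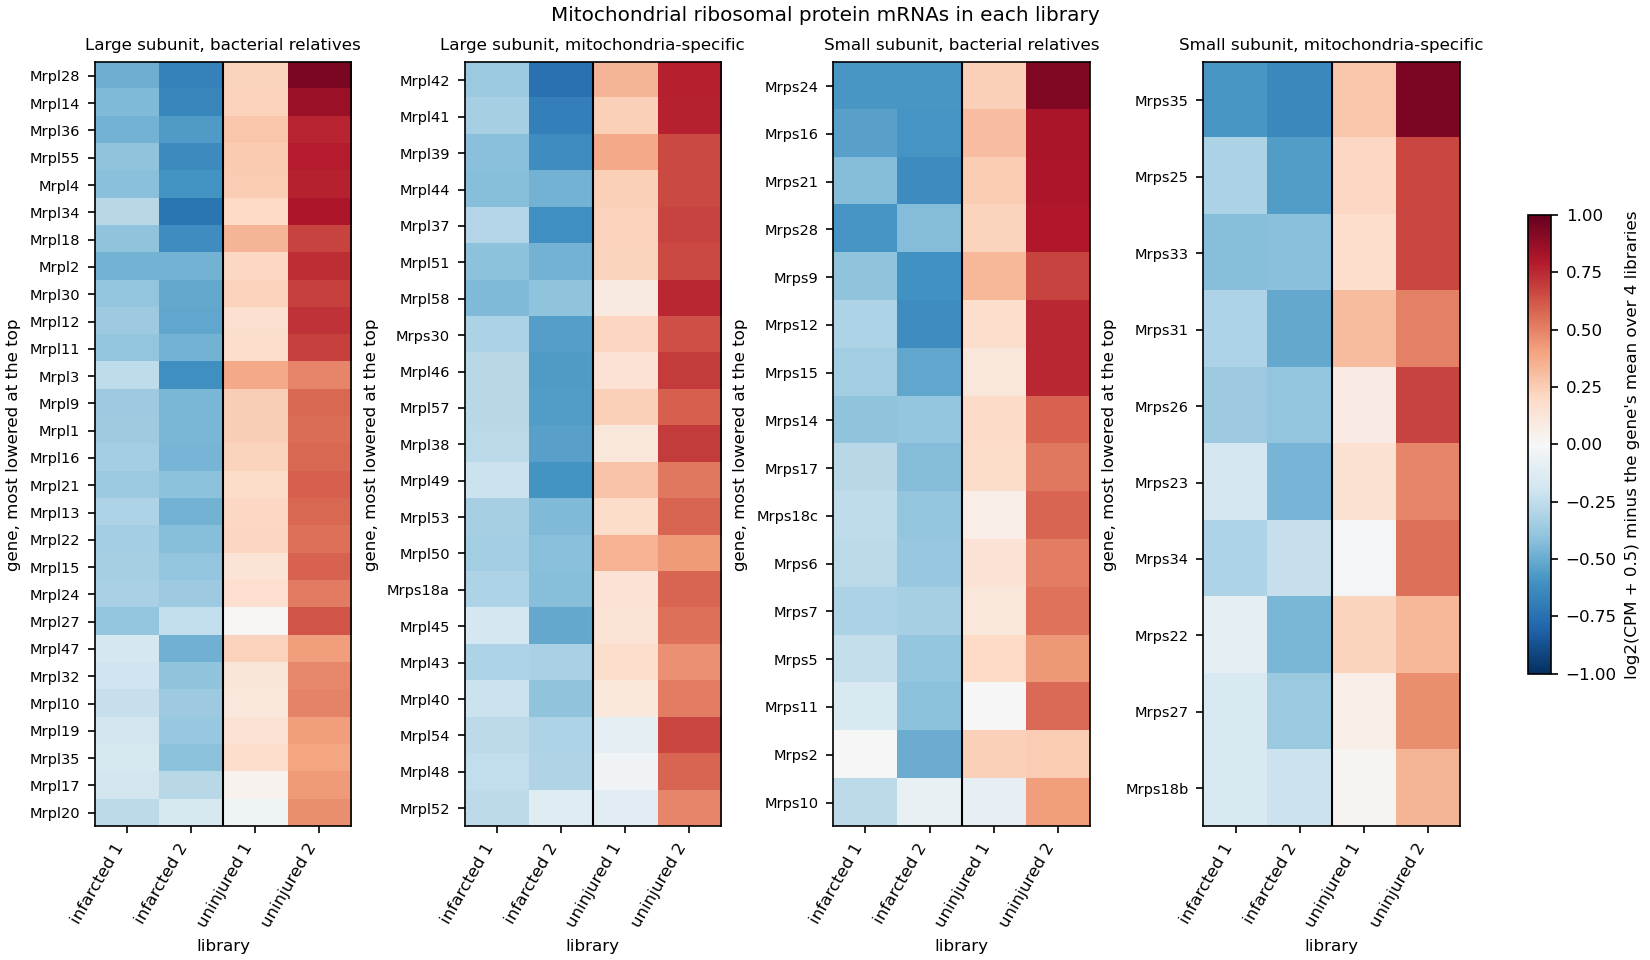
Level of each of the 75 tested mitochondrial ribosomal protein genes other than Mrps36 in each heart, as log2(CPM + 0.5) minus the gene's mean over the 4 libraries, with infarcted replicates 1 and 2 left of uninjured replicates 1 and 2 and 1 panel for each class of subunit. Both infarcted columns are below the gene mean almost throughout, and uninjured replicate 2 is the highest column for all genes shown.

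The large subunit, which holds the peptidyl transferase centre and the exit tunnel, had 44 of 49 tested proteins called lower, with a median log2 fold change of -0.83. Of the 28 with a bacterial counterpart 26 fell (median -0.83), and of the 21 found only in mitochondrial ribosomes 18 fell (median -0.85). Mrpl28, a conserved protein, had 37.5 and 32.9 CPM in infarcted hearts, against 61.7 and 102 CPM in uninjured hearts (log2 fold change -1.22 ± 0.24 SE, edgeR adjusted p = 0.00244). Mrpl14, which lies on the face that meets the small subunit, had 18.9 and 16.3 CPM in infarcted hearts and 30.5 and 47.6 CPM in uninjured hearts (-1.15 ± 0.23 SE, edgeR adjusted p = 0.00266), a call lost with the length trend removed (-0.41, edgeR adjusted p = 0.0716). Both genes were lowest in infarcted replicate 2 and highest in uninjured replicate 2, with no overlap of the groups. Mrpl36, a short conserved protein, had 10.02 and 9.37 CPM in infarcted hearts and 17.3 and 24.3 CPM in uninjured hearts (-1.10 ± 0.22 SE). Mrpl4 (-1.05) and Mrpl18 (-1.03) followed. Without uninjured replicate 2 none of these was called, and without infarcted replicate 2 the large subunit had 21 proteins called.

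Among the large subunit proteins without a bacterial counterpart, Mrpl42 fell most. It is also the family's most abundant message per kilobase of transcript, with a mean of 315.5 CPM per kb over the 4 libraries, and it had 150 and 115 CPM in infarcted hearts, against 244 and 332 CPM in uninjured hearts (log2 fold change -1.12 ± 0.23 SE, edgeR adjusted p = 0.00281). Mrpl41 had 12.4 and 9.66 CPM in infarcted hearts and 18.7 and 27.3 CPM in uninjured hearts (-1.06 ± 0.23 SE). Mrpl39, a relative of threonyl-tRNA synthetases near the exit tunnel, had 32.1 and 27.9 CPM in infarcted hearts and 56.1 and 68.6 CPM in uninjured hearts (-1.05 ± 0.19 SE, edgeR adjusted p = 0.00143). The 2 uninjured hearts were nearer each other for Mrpl39 than for the large subunit genes above. Mrpl50 had the smallest SE of the family, with 30.6 and 29.2 CPM in infarcted hearts and 50.1 and 52.8 CPM in uninjured hearts (-0.78 ± 0.18 SE). It was picked out after its values were seen, as the message whose replicates lay closest.

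Members fell in each structural region of the large subunit. Of the 5 proteins of the stalk, the arm that recruits translation factors, 4 were called lower (median -0.80). Mrpl12, its multi-copy component, which is also reported to bind the mitochondrial RNA polymerase in human cells, had 87.0 and 78.0 CPM in infarcted hearts, against 125 and 184 CPM in uninjured hearts (-0.91 ± 0.22 SE, edgeR adjusted p = 0.00731), and Mrpl54 was not called (-0.63, edgeR adjusted p = 0.0656). Of the 7 tested proteins around the exit of the tunnel, where nascent chains meet the inner membrane, 6 fell (median -0.71), and Mrpl17 was not called (-0.49, edgeR adjusted p = 0.0806). Of the 7 proteins of the central protuberance, where mammals carry a mitochondrial tRNA as a structural RNA, 6 fell (median -0.88). Mrpl55 had 23.1 and 19.5 CPM in infarcted hearts and 36.8 and 53.1 CPM in uninjured hearts (-1.08 ± 0.22 SE), and Mrpl58, a peptidyl-tRNA hydrolase built into the subunit that frees stalled chains, had 18.0 and 18.4 CPM in infarcted hearts and 26.2 and 41.8 CPM in uninjured hearts (-0.90 ± 0.23 SE). As for the whole family, 0 of these were called without uninjured replicate 2. Without infarcted replicate 2 the calls came to 2 in the stalk, 2 around the tunnel exit and 3 in the central protuberance.

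The small subunit, which binds the message and decodes it, had 19 of 26 tested proteins called lower, with a median of -0.77. Of the 16 classed as having a bacterial counterpart 13 fell (median -0.78). Of the 10 classed as mitochondria-specific, among them the paralog Mrps18b, 6 fell (median -0.72). The largest fall of the whole family was that of Mrps35, a mitochondria-specific protein. It had 27.8 and 26.7 CPM in infarcted hearts, against 51.0 and 81.1 CPM in uninjured hearts, a log2 fold change of -1.28 ± 0.22 SE (edgeR adjusted p = 0.00122). Mrps24, a conserved protein by the channel where the message enters, had 12.2 and 12.1 CPM in infarcted hearts and 21.9 and 35.4 CPM in uninjured hearts (-1.24 ± 0.24 SE, edgeR adjusted p = 0.00205). Mrps16, in which recessive human variants cause a fatal respiratory chain deficiency, had 13.0 and 12.5 CPM in infarcted hearts and 23.8 and 34.0 CPM in uninjured hearts (-1.18 ± 0.22 SE, edgeR adjusted p = 0.00151). For all 3 genes the infarcted hearts were nearly equal, the uninjured hearts differed, and the groups did not overlap. Mrps21 had 36.4 and 31.6 CPM in infarcted hearts and 58.7 and 86.4 CPM in uninjured hearts (-1.10 ± 0.21 SE). Mrps28 (-1.08) and Mrps9 (-1.02) followed. None of these calls stood without uninjured replicate 2, and 11 in the small subunit stood without infarcted replicate 2.

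Summed small subunit CPM were 42.4% and 43.1% of summed large subunit CPM in infarcted hearts, and 40.3% and 40.3% in uninjured hearts. Both infarcted ratios lay above both uninjured ones, by 2.40 percentage points on average. An exact two-sided permutation test gave p = 0.333, the smallest that 2 against 2 can give.

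**Figure D2:**
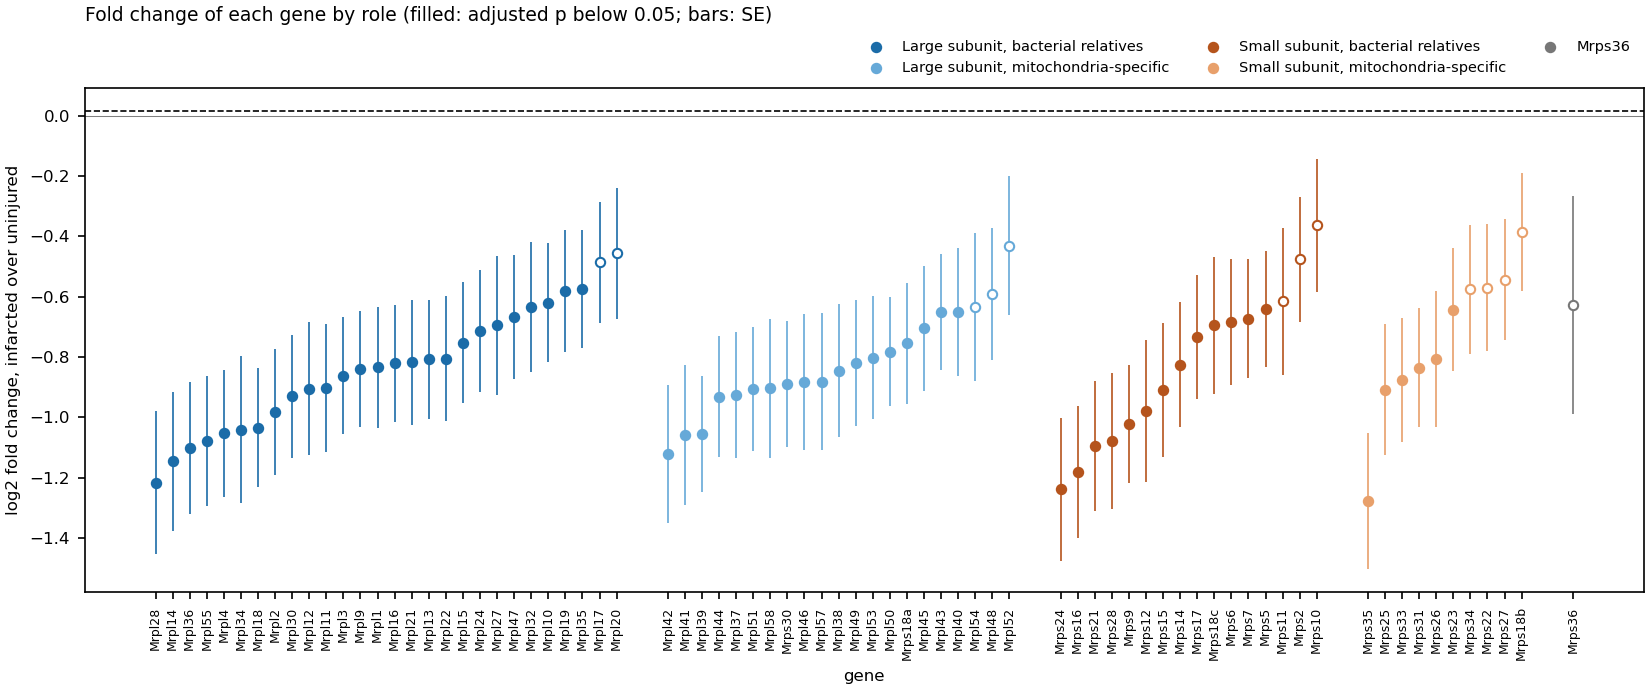
Log2 fold change, infarcted over uninjured, with its SE for each tested gene by class of subunit, filled where the gene was called and open where it was not, with a dashed line at the median of all genes (0.02). All points lie below 0, between -1.28 (Mrps35) and -0.36 (Mrps10), and the open points are among those nearest 0.

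The 13 genes not called were also below 0, with adjusted p of 0.0525 to 0.228 in edgeR. Mrps10, which helps form the decoding subunit's head, had 12.3 and 14.1 CPM in infarcted hearts, against 14.0 and 19.9 CPM in uninjured hearts (-0.36 ± 0.22 SE, edgeR adjusted p = 0.228). Its groups overlapped, as infarcted replicate 2 lay slightly above uninjured replicate 1. Mrps18b had 24.7 and 23.7 CPM in infarcted hearts and 28.1 and 35.1 CPM in uninjured hearts (-0.38 ± 0.20 SE). Mrpl52 (-0.43), Mrpl20 (-0.46), Mrps2 (-0.48) and Mrpl17 (-0.49) were the next nearest to 0. The remaining 7 were Mrps27, Mrps22, Mrps34, Mrpl48, Mrps11, Mrps36 and Mrpl54, with log2 fold changes of -0.54 to -0.63. A p that misses the threshold does not show that these genes were unchanged.

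The paralogs Mrps18a, Mrps18b and Mrps18c are relatives of a single bacterial protein and occupy different sites, Mrps18a in the large subunit and the other two in the small one. Mrps18a had 34.7 and 31.9 CPM in infarcted hearts and 47.6 and 64.7 CPM in uninjured hearts (-0.75 ± 0.20 SE, edgeR adjusted p = 0.0116). Mrps18c had 10.5 and 9.51 CPM in infarcted hearts and 13.2 and 19.2 CPM in uninjured hearts (-0.69 ± 0.23 SE, edgeR adjusted p = 0.0317). With Mrps18b at -0.38, both of the others fell further by the fitted value, and the difference between paralogs was not tested. Neither Mrps18a nor Mrps18c was called without infarcted replicate 2 or without uninjured replicate 2.

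Variants in the human counterparts of Mrpl3, Mrpl44, Mrps14 and Mrps22 are known causes of mitochondrial cardiomyopathy. Mrpl3 had 40.7 and 31.5 CPM in infarcted hearts, against 63.2 and 68.1 CPM in uninjured hearts (-0.86 ± 0.19 SE, edgeR adjusted p = 0.00465), Mrpl44 had 22.8 and 22.1 CPM in infarcted hearts and 36.6 and 49.0 CPM in uninjured hearts (-0.93 ± 0.20 SE), and Mrps14 had 12.6 and 12.8 CPM in infarcted hearts and 19.4 and 25.7 CPM in uninjured hearts (-0.82 ± 0.21 SE). Those 3 fell without overlap of the groups. Mrps22 had 12.6 and 9.70 CPM in infarcted hearts and 15.9 and 17.2 CPM in uninjured hearts and missed the threshold (-0.57 ± 0.21 SE, edgeR adjusted p = 0.0534). Without uninjured replicate 2 all 4 had adjusted p above 0.05, and without infarcted replicate 2 Mrpl3 lost its call as well.

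Levels within the family spanned 1.99 to 315.5 CPM per kb, with a median of 20.7 (mean of 4 libraries, over the longest protein-coding transcript). After Mrpl42 came Mrps21 at 109 CPM per kb, Mrpl12 at 90.03, Mrps23 at 71.6 and Mrpl28 at 54.8. Mrps23, a mitochondria-specific small subunit protein, had 86.4 and 70.6 CPM in infarcted hearts and 108 and 137 CPM in uninjured hearts (-0.64 ± 0.20 SE, edgeR adjusted p = 0.0281). At the low end stood Mrpl19 at 3.74, Mrps25 at 3.59 and Mrps36 at 1.99 CPM per kb. Mrps36 had 57 and 44 counts in infarcted hearts and 71 and 119 counts in uninjured hearts and was not called (-0.63 ± 0.36 SE). Across the 76 genes the log2 fold change had a Pearson r of -0.32 and a Spearman rho of -0.34 with log2 mean CPM, a description of genes that share the same 4 libraries. Mrpl23 had 3 and 1 counts in infarcted hearts and 5 and 18 in uninjured hearts, too few to test, and Mrpl23-ps1 had 0 in all 4. The other 5 family symbols of the name table, Mrpl33 and 4 pseudogenes, were not analysed here.

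The 5 further subunits of the mitochondrial ribosome that carry other symbols all fell, with a median of -0.87. Dap3, a GTP-binding small subunit protein, had 35.5 and 38.8 CPM in infarcted hearts, against 62.3 and 85.6 CPM in uninjured hearts (-0.99 ± 0.20 SE, edgeR adjusted p = 0.00272). Of 14 translation factors 12 fell (median -0.72). Tufm, the elongation factor that brings aminoacyl-tRNA to the ribosome, had 6.80 and 5.79 CPM in infarcted hearts and 11.5 and 17.6 CPM in uninjured hearts (-1.21 ± 0.25 SE). Of 26 assembly factors 21 fell (median -0.76), among them the GTPase Mtg2, at 8.22 and 8.65 CPM in infarcted hearts and 16.7 and 22.5 CPM in uninjured hearts (-1.22 ± 0.22 SE). Of 20 mitochondrial tRNA synthetases and amidotransferase subunits 12 fell (median -0.69), with Cars2 at -1.18 ± 0.22 SE. Of 10 genes that transcribe mitochondrial DNA or process its RNA 6 fell (median -0.65). None of these lists had a member called higher, and none had a member called lower without uninjured replicate 2. Without infarcted replicate 2 the calls came to 4 of the 5 further subunits, 4 translation factors, 10 assembly factors, 6 synthetases and 1 of the mitochondrial DNA and RNA genes.

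The messages that the ribosome translates moved less uniformly. Of 12 mitochondrially encoded mRNAs 3 fell, with a median of -0.52. mt-Nd3, a complex I subunit, had 2315 and 1405 CPM in infarcted hearts, against 4916 and 6711 CPM in uninjured hearts (-1.64 ± 0.31 SE, edgeR adjusted p = 0.00161). mt-Co3 and mt-Co2, subunits of cytochrome oxidase, had log2 fold changes of -1.25 ± 0.36 and -1.14 ± 0.37 SE. Among those not called, mt-Nd4 was at -0.36 ± 0.32 SE, and mt-Atp8 (0.02 ± 0.24 SE) and mt-Nd5 (0.34 ± 0.35 SE) lay above 0. With the trend with transcript length removed 0 of the 12 were called, without uninjured replicate 2 also 0, and without infarcted replicate 2 only 1.

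The cytosolic ribosome, which translates nuclear messages including those of the family itself, had 3 of 73 protein genes called lower and 1 called higher. The median was -0.28 and turned to 0.07 on library totals, a scale on which the median of all genes was 0.36. It turned to 0.03 without uninjured replicate 2 and to 0.30 with the length trend removed. The medians of all genes were then 0.03 and 0.04. The family's median kept its sign under all of these. Among 75 cytosolic genes with counts listed, 25 were below 5 CPM in every library. Rps27 had 0 CPM in both infarcted hearts and 0 and 0.016 CPM in uninjured hearts. The list's summed level was therefore not set against the family's, and its fold changes stand beside the family's with this limit.

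Part of the cardiomyocyte markers fell as well. Of 10 markers 6 fell, with a median of -0.97 over all 10, and Tnni3, cardiac troponin I, had 1959 and 1789 CPM in infarcted hearts, against 3938 and 6416 CPM in uninjured hearts (-1.47 ± 0.29 SE, edgeR adjusted p = 0.00232). The 4 markers not called were Myh6 (-0.61), Actc1 (-0.51), Ryr2 (-0.20) and Actn2 (-0.02), and the groups overlapped for Ryr2 and Actn2. Per 1000 CPM of summed cardiomyocyte markers, the family had 51.9 and 52.6 CPM in infarcted hearts and 49.4 and 53.6 CPM in uninjured hearts. On this ratio the groups overlapped, with both infarcted hearts between the uninjured ones. The sum is weighted towards the most abundant markers. In infarcted replicate 1 Myh6 was at 9723 CPM, against 1816 CPM for Actn2 and 1017 CPM for Ryr2. A ratio to each single marker was not taken. Macrophage and fibroblast markers moved the other way, as with Lgals3 at 19.4 and 23.8 CPM in infarcted hearts and 1.90 and 2.33 CPM in uninjured hearts. Without uninjured replicate 2 the calls came to 0 cardiomyocyte, 4 fibroblast and 3 macrophage markers, with medians of -0.76, 2.75 and 1.39. The part of cell composition in the family's fall was not tested.

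**Figure D3:**
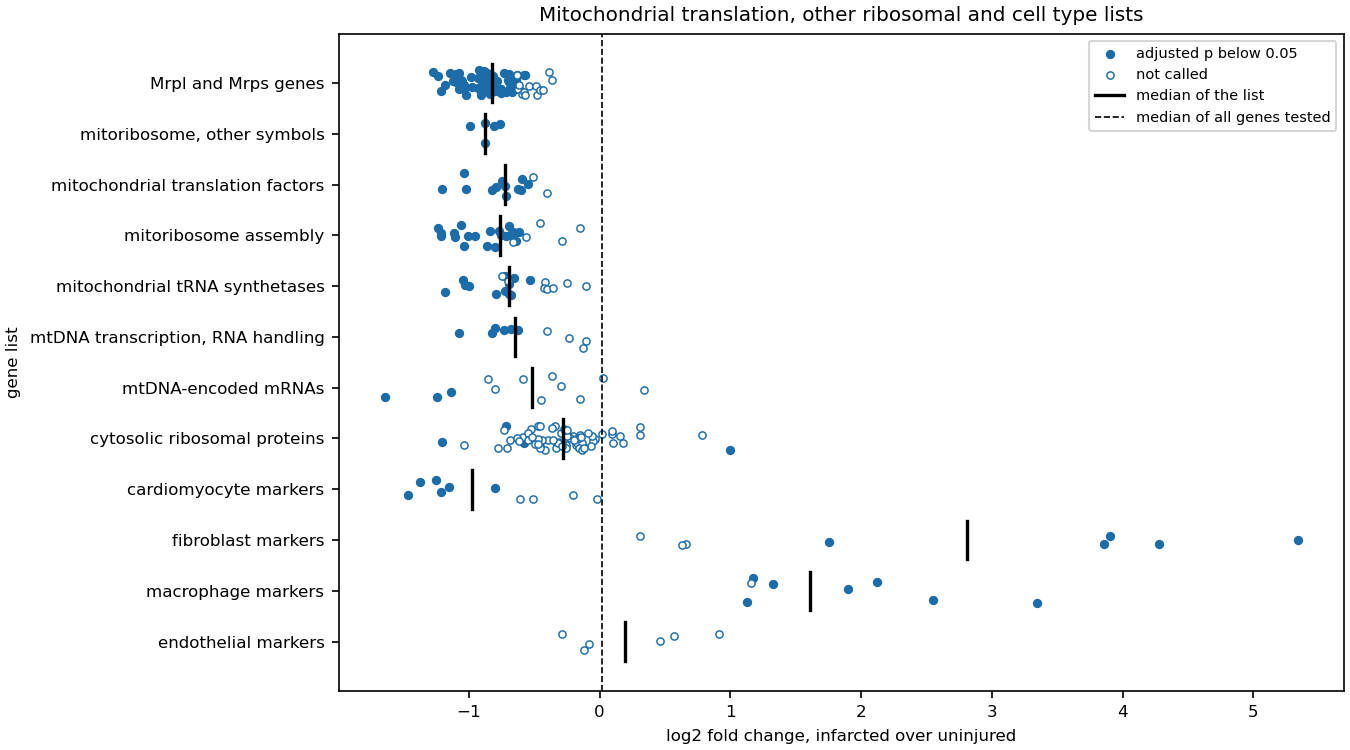
Log2 fold change, infarcted over uninjured, of every tested gene in each list, with the list's median. The mitochondrial ribosomal proteins (median -0.82) and the lists of mitochondrial translation lie below 0 beside the cardiomyocyte markers (median -0.97), the cytosolic ribosomal proteins (median -0.28) lie nearer 0, and fibroblast and macrophage markers lie above.

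Transcript length moved with the comparison across all genes, so the family, with a median length of 1368.5 nt, was set beside other genes of the same length. Length was that of a gene's longest annotated transcript, protein-coding where it had one. Which transcript the hearts expressed was not read, so a short message can stand in a long class. From the shortest length class to the longest (up to 700, 1000, 1500, 2500 and 4000 nt, and over 4000 nt), the family had median log2 fold changes of -1.04, -0.81, -0.83, -0.78, -0.87 and -0.73, on 7, 15, 22, 11, 12 and 9 genes. Other genes of the same classes had medians of -0.66, -0.57, -0.39, -0.17, 0.02 and 0.23. In both sets the shortest class was lowest and the longest class highest, and the family's medians spanned a narrower range. Of the 12 genes between 2500 and 4000 nt all 12 were called lower, where 11.4% of other genes were, and of the 9 over 4000 nt 7 were, where 6.30% of other genes were. Over the 76 genes log2 fold change and log2 length had a Pearson r of 0.12 and a Spearman rho of 0.13, beside 0.21 and 0.30 over 13733 genes with a length.

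Removing a smooth trend with transcript length from each library left 37 of 76 genes called lower, with a background of 12.2%, and a median of -0.46, and 7 fitted values turned above 0 without a call. The large subunit then had 27 of 49 called, the small subunit 10 of 26 and the stalk 1 of 5. The largest values were then those of genes with a long annotated transcript, -1.39 for Mrps35, -1.17 for Mrps25 and -1.07 for Mrps16, all still called. By contrast, Mrps21 went to -0.27, Mrpl14 to -0.41 and Mrpl42 to -0.42, and none of these was called. In all 27 of the 63 calls were lost, also those of Mrpl12, Mrpl41, Mrps18a, Mrps18c, Mrps23 and Mrps28, and Mrpl17 gained one (-0.76). With the trend removed and uninjured replicate 2 left out as well, no call stood and the median was -0.37. The same length gradient separated the uninjured hearts. Members over 4000 nt were above in uninjured replicate 2 by a median of 0.45 on the log2 scale, whereas other genes over 4000 nt had a median difference of -0.14, uninjured replicate 2 minus replicate 1. Between 700 and 1000 nt the median difference was 0.52 in members and 0.40 in other genes.

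**Figure D4:**
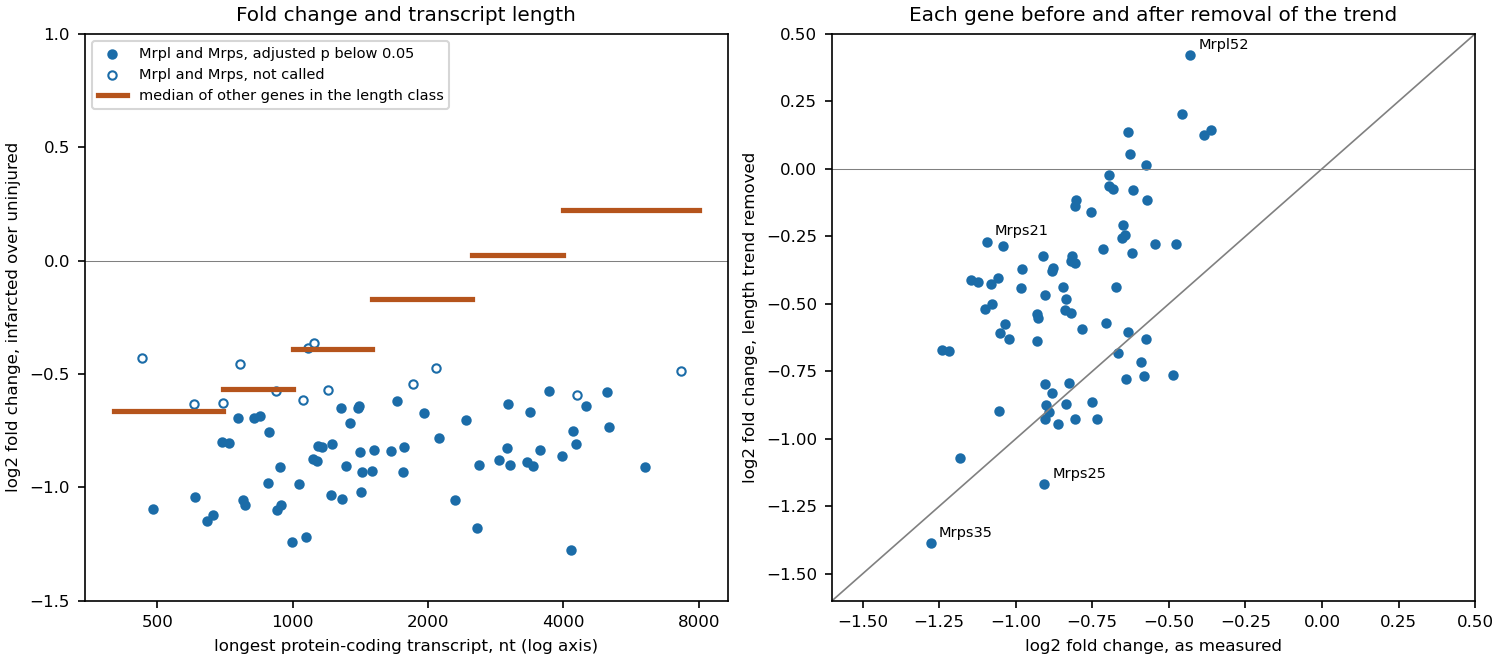
Left, log2 fold change, infarcted over uninjured, against the length of the longest protein-coding transcript (log axis) for each mitochondrial ribosomal protein gene, with medians of other genes in each length class. Right, each gene's log2 fold change before and after the length trend was removed; the medians move from -0.82 to -0.46. Members with a long annotated transcript stay below 0 where other genes of these length classes have medians of 0.02 and 0.23.

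Promoters were read because the family moved together. RefSeq promoters (GRCm38.p6, 250 bases before to 50 bases after the start) matched 68 of the 78 genes, and 4 motifs were searched on both strands: NRF1 GCGCANGCG, ETS CCGGAAG, YY1 AAGATGGCG and ERR TNAAGGTCA. NRF1, the ETS factor GABPA and YY1 are known regulators of nuclear genes for mitochondria. The promoters of the 3 called genes with the largest falls that hold a match are printed 5′ to 3′ on the gene's strand with the matches in capitals. The Mrps24 promoter (chr11:5707652-5707951, minus strand) holds YY1 at bases 37 to 45 of the transcript, the Mrps16 promoter (chr14:20393441-20393740, minus strand) holds ETS on the opposite strand 74 to 68 bases before the start and again at bases 25 to 31, and the Mrpl14 promoter (chr17:45686099-45686398, plus strand) holds NRF1 at bases 5 to 13.
Mrps24: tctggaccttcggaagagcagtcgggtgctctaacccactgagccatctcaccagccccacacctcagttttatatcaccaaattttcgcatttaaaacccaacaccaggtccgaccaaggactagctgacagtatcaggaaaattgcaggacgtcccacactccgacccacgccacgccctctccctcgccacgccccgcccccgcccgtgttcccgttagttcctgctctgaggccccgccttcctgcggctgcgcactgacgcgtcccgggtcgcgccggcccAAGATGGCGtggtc
Mrps16: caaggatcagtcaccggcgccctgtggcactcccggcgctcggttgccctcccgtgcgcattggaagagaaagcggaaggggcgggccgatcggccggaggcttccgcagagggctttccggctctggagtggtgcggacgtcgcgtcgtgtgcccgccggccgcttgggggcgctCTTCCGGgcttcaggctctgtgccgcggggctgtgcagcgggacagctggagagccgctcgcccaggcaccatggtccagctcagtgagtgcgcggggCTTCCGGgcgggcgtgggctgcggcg
Mrpl14: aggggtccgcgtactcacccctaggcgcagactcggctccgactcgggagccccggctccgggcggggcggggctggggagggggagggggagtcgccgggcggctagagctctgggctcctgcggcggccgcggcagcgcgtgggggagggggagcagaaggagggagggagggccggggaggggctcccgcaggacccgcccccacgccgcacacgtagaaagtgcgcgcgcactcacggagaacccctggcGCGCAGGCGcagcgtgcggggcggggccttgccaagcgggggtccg

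A gene was counted once if any of its promoters held a match, and the 68 genes of the family had 74 promoters. NRF1 letters were found for 16 of the 68 genes (23.5%), beside 14.4% of 10737 genes tested and 7.03% of all 27025 genes with a promoter. ETS letters were in 25 (36.8%), beside 18.7% and 9.93%, and YY1 letters in 8 (11.8%), beside 3.28% and 1.64%. The ERR letters were in 0 of 68, beside 0.894% of genes tested. At least 1 of the first 3 was found in 60.3% of the family, 31.8% of genes tested and 57.1% of the cytosolic ribosomal protein genes. A match was held by 60.7% of called and 63.6% of uncalled members, and members with a match had a median log2 fold change of -0.84 and those without one of -0.82. A match describes letters in a window and not bound factor.

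Splicing within the family was read from the percent of messages that include an exon or use an alternative splice site. The table held 455 events in 70 of the genes, and 84 events in 38 genes had enough reads to test. Of these 0 were called, as were 0 of all 9930 events tested (0%), by the edgeR quasi-likelihood test of the interaction of form and group. In that test 3 of the 84 had an unadjusted p below 0.05, as did 629 of 9930. Alternative sites of the same splice choice are listed as separate events. Among the 3, the Mrpl24 entries were such a mirrored pair, with the same reads and changes of 12.85 and -12.85 points. The limma test on the logit called 0, with 5 at an unadjusted p below 0.05. The lowest adjusted p in the family was 0.773. The typical event moved by 1.31 percentage points between groups, with 2.77 points over all events.

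The lowest p belonged to a 3′ splice site of Mrpl24, a large subunit protein by the exit tunnel (chr3:87726057-87726148, mm9). The site was used in 19.0% of 43 reads and 16% of 25 reads in infarcted hearts, against 5.77% of 52 reads and 3.53% of 85 reads in uninjured hearts. The Wilson 95% intervals ran from 9.74% to 32.6% and from 6.403% to 34.7% in infarcted hearts, and from 1.98% to 15.6% and from 1.21% to 9.87% in uninjured hearts. The percents did not overlap between groups, their intervals did, and the edgeR adjusted p was 0.773. Percents without overlap were found for 33.3% of the family's tested events and 37.6% of all events tested. A 5′ splice site of Mrps17, a conserved small subunit protein, was used in 1.79% of 56 reads and 0% of 46 reads in infarcted hearts, against 9.46% of 74 reads and 7.45% of 94 reads in uninjured hearts. The Wilson 95% interval of the 0 of 46 reads reaches 7.71%, which takes in the 7.45% of uninjured replicate 2, and such intervals cover counting error only. An exon of Mrpl38 was included in 100% of reads in both infarcted hearts, against 99.5% in both uninjured hearts. The family's unadjusted p below 0.05 did not stand without uninjured replicate 2. Its typical event then moved by 1.86 percentage points, with 3.84 points over all events.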

How the data were processed

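The authors deposited raw counts per Ensembl gene, and percent inclusion or percent use of splicing events with the inclusion and exclusion reads behind each value; the build is mm9 per the submitters' processing notes, and per the labels' protocols the libraries were 50 bp single-end reads. For the aligner, counter, strand setting and event tool nothing is stated in the sources used here, which leaves reads shared with near-identical copies or antisense genes uncertain. Counts were tested in edgeR 4.0.16 (R 4.3.3) with TMM, filterByExpr, robust quasi-likelihood F-tests and Benjamini-Hochberg adjustment over all genes, called below 0.05. SEs are the absolute log2 fold change over the square root of F. The common biological coefficient of variation was 19.3%. Events needed 10 reads per library and 5 reads per form. limma 3.58.1 and DESeq2 1.42.0 served as alternatives. The members and lists were chosen with earlier results of these data known. Named genes were the 12 largest falls, the 6 smallest uncalled changes, the highest and lowest levels per length, paralogs, cardiomyopathy genes and up to 4 of smallest p per list. Scripts were tested on simulated data.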

Additional observations from a re-analysis of the deposited data

How the results depend on the processing

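The 63 members called lower became 66 with the GC trend removed, where 2328 of all genes were lower in place of 2037. They became 67 with relative log expression factors (2146 of all genes), 67 in DESeq2 (2095) and 69 without a filter (2233). In limma-voom 63 were lower (1986 of all genes). At an adjusted p below 0.01, for which all genes were not counted, 43 were lower. Under any setting 0 were called higher. Library totals as the scale gave 23 lower with a median of -0.48, on a scale where the median of all genes was 0.36, 786 genes were lower and 4386 higher in place of 2037 and 2546, and the members kept their distance from it. The length trend removed gave 37 and -0.46, against 12.2% of all genes, and both trends removed gave 39 and -0.49, against 13.5%. Leaving out 1 library gave 0 to 69 members and medians of -0.99 to -0.60: 60 members without infarcted replicate 1, against 11.5% of all genes, 32 without infarcted replicate 2, against 8.83%, 69 without uninjured replicate 1, against 12.7%, and 0 without uninjured replicate 2, against 0.056%. Chosen after the data were seen, DESeq2 without uninjured replicate 2 gave 14, and the length trend removed without it gave 0 and -0.37. The cause was not tested. Not called in any of these, some fitted values turned positive under the length trend, both trends, and the length trend without uninjured replicate 2: Mrpl20 (0.20, 0.20 and 0.22), Mrpl52 (0.42, 0.38 and 0.42), Mrps10 (0.14, 0.15 and 0.21), Mrps18b (0.12, 0.13 and 0.088) and, under the first 2, Mrps36 (0.055 and 0.046). Same-numbered libraries deviated with a correlation of 0.08, in 2 pairs only, so the numbers are not taken to pair mice. With the replicate number as a block 69 members were called lower, where 2340 of all genes were in place of 2037. The members' median was then -0.81, and 0 events were called. No event in the family was called under any setting. Depth limits the events, and Mrpl23 was too low to test in the filtered fit of all 4 libraries; the cause of its low count was not tested.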
